A study of Homo sapiens with 4 samples.

Results

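The genes described are 10 surface molecules of cell adhesion, costimulation and immune checkpoints, chosen by symbol, and 9 of them had a probe set, 1 each, among 17185 named genes and 45033 probe sets. They were measured in KYSE410, an established human cell line of oesophageal squamous cell carcinoma. Cultures received PBS as control, or one of 3 inflammatory stimuli for 24 h: the cytokine TNFα, the cytokine IL1β, or LPS, the bacterial lipopolysaccharide that TLR4 recognises. The labels name no gene alteration and no further agent in any of the 4 conditions, and the doses are not known here. CD47, the signal that restrains phagocytosis, had no matched probe set, so its expression was not analysed here. RNA from each condition was read on 1 single-colour array, so no difference has an error or a test, the number of arrays limits the precision, and a single line of cells stands for each condition.

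The adhesion molecules ICAM1, ICAM3 and VCAM1 carry immunoglobulin domains and bind integrins on leukocytes, while CD58 binds CD2 on T cells and CD44 binds hyaluronan in the matrix. CD40 is a receptor of the TNF receptor family that receives a costimulatory signal from T cells. CD274 (PD-L1) and PDCD1LG2 (PD-L2) are both ligands of the inhibitory receptor PD-1, and CD276 (B7-H3) is a related B7 family molecule. In epithelial and endothelial cells ICAM1 and VCAM1 are known as targets of NF-κB, the factor that TNF, IL1 and Toll-like receptors activate, and the PD-1 ligands are known to respond to interferons through IRF1.

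The sequences just upstream of ICAM1 and VCAM1 are shown because both genes were brighter with LPS, and that of CD274 because it is the inducible checkpoint ligand whose signal stayed near background here. Each is the 250 bases before the annotated gene start, 5′ to 3′ on the gene's strand, from RefSeq on GRCh38.p14. The windows are chr19:10270870-10271119, plus strand, for ICAM1, chr1:100719492-100719741, plus strand, for VCAM1 and chr9:5450292-5450541, plus strand, for CD274. Capitals mark matches, on either strand, to a κB-like motif (GGNNNTTCC), a gamma-activated-site-like motif (TTCNNNGAA) or an interferon-response-like motif (GAAA, any 2 bases, GAAA).

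ICAM1: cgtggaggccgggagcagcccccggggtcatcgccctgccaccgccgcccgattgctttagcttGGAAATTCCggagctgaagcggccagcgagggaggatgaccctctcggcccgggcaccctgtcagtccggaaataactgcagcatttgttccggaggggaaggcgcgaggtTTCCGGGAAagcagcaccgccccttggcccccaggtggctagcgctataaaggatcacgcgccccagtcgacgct

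VCAM1: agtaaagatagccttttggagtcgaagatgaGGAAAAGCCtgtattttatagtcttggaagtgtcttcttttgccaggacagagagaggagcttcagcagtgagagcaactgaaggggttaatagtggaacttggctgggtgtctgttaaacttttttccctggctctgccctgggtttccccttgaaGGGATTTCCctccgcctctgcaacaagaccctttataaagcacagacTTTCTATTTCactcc

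CD274: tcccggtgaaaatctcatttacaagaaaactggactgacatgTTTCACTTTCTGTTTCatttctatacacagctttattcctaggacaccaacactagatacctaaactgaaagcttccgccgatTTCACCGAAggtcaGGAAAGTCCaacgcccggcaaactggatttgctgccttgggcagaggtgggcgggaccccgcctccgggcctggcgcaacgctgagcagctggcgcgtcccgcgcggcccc

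ICAM1 held a κB-like match, GGAAATTCC, 186 to 178 bases before its start and a gamma-activated-like match, TTCCGGGAA, 75 to 67 bases before it. VCAM1 held κB-like matches at 219 to 211 bases (GGAAAAGCC) and at 62 to 54 bases (GGGATTTCC), and an interferon-response-like match, TTTCTATTTC, 15 to 6 bases before its start. CD274 held a κB-like match (GGAAAGTCC, 111 to 103 bases), a gamma-activated-like match (TTCACCGAA, 125 to 117 bases) and 2 overlapping interferon-response-like matches (TTTCACTTTC from 208 bases and TTTCTGTTTC from 202 bases). Upstream windows were found for 8 of the 10 genes, without CD40 and PDCD1LG2. These genes have 11 windows, 3 of them for ICAM3 and 2 for CD276. The κB-like motif matched in 5 of the 11, CD58 and CD276 being the other genes, where 17.1% of all 35116 windows of this length held it. The gamma-activated-like motif matched in 2 of the 11 (6.57% of all windows) and the interferon-response-like motif also in 2 (3.02% of all windows). CD44, CD47 and ICAM3 matched none of the motifs. A match describes letters only and does not show that a factor binds.

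Values are RMA intensities, in which arrays were made comparable by the authors, and a difference is given on the log2 scale between 2 arrays. A gene is called higher or lower when its values on the 2 arrays are 2-fold or more apart and the higher one is not under a floor of 260 (8.02 on the log2 scale), the median level of named genes. A value below 2 times that of the random-sequence control probes on the same array, 108 with PBS and 112 to 113 with the stimuli, is called near background. Of the 9 genes, 4 reached the floor with PBS and 5 on each stimulated array. The LPS array stood apart from the others, with 632 named genes at least 2-fold above and 408 at least 2-fold below all 3 of them. Of 17 squamous epithelial markers, all were above the floor with PBS and with LPS, while CDH1 with TNFα (232) and ITGA6 with IL1β (177) were below it. CDH1 (1209 with PBS and 232, 287 and 284 with TNFα, IL1β and LPS) and ITGA6 (800.4, 275, 177 and 290 in that order) were lower with each stimulus, and KRT4, TP63, KRT14 and KRT17 were higher with LPS. KRT13 was higher with TNFα, at 47862 against 23485 with PBS. A second JUP probe set was higher with TNFα, IL1β and LPS (1.19, 1.18 and 1.29), but the JUP set used here gave 0.22, 0.15 and -0.12. Leukocyte markers did not keep 1 level: their summed intensity over 20 genes was 11855 in the PBS control, 14806 after TNFα, 16511 after IL1β and 2802 after LPS. LYZ took the largest share of the sum on the PBS, TNFα and IL1β arrays, with 6917, 5600, 10390 and 209 in the same order, and FCGR3A had 212, 2906, 730 and 84.8 and TYROBP 801, 838, 1048 and 82.3. CD68 lay between 280 and 608, while CD3E, CD2, MS4A1, ITGAM and LAPTM5 were near background on all 4 arrays. PTPRC (CD45) had intensities of 91.5, 1295, 1046 and 81.5 in the same order. Not all of the list fell with LPS: CD14 had 211 against 164 with PBS and CD33 223 against 186. CD3D had 253 with LPS against a near-background 107 with PBS. Of the 20 markers, 5 were called lower and 0 higher with LPS against PBS. Cardiac markers, summed over 10 genes, had 38999, 51061, 58912 and 14942 in the order PBS, TNFα, IL1β and LPS, of which ACTC1 was 17961, 21145, 28777 and 12945. With LPS the cardiac genes MYH6 and MYH7 were at least 83.9-fold and 32.5-fold lower than with PBS, TNNI3 was 12.3-fold lower, and TNNT2 had 368 against 4064. These 4 were the only cardiac markers called lower with LPS against PBS, and 0 were called higher. MYL7 had 562 with LPS against 439 with PBS, MYL2 had 114 against 131, and NPPA was near background on both arrays. Fibroblast markers, also 10, summed to 1796, 1973, 1712 and 1097. The part of these markers and of the separate standing of the LPS array in the results with LPS was not tested.

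ICAM1 was higher with every stimulus. Its intensity was 178 in the PBS control, 405 after TNFα, 533 after IL1β and 1276 after LPS. The PBS value lay below the floor and above the background limit, and all 3 stimulated values lay above the floor. The log2 differences from PBS were 1.19 for TNFα, 1.59 for IL1β and 2.84 for LPS. Because its PBS value lay below the floor, ICAM1 entered each of these comparisons through the stimulated array, and its calls needed a difference on that side. The TNFα call rests close to 2-fold: an offset of 50.9 added before the logarithm gave 0.99. ICAM1 was also one of 96 named genes, of 17185, that reached the floor on a stimulated array and had a PBS value at least 2-fold below each other array (127 with no floor).

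**Figure D1:**
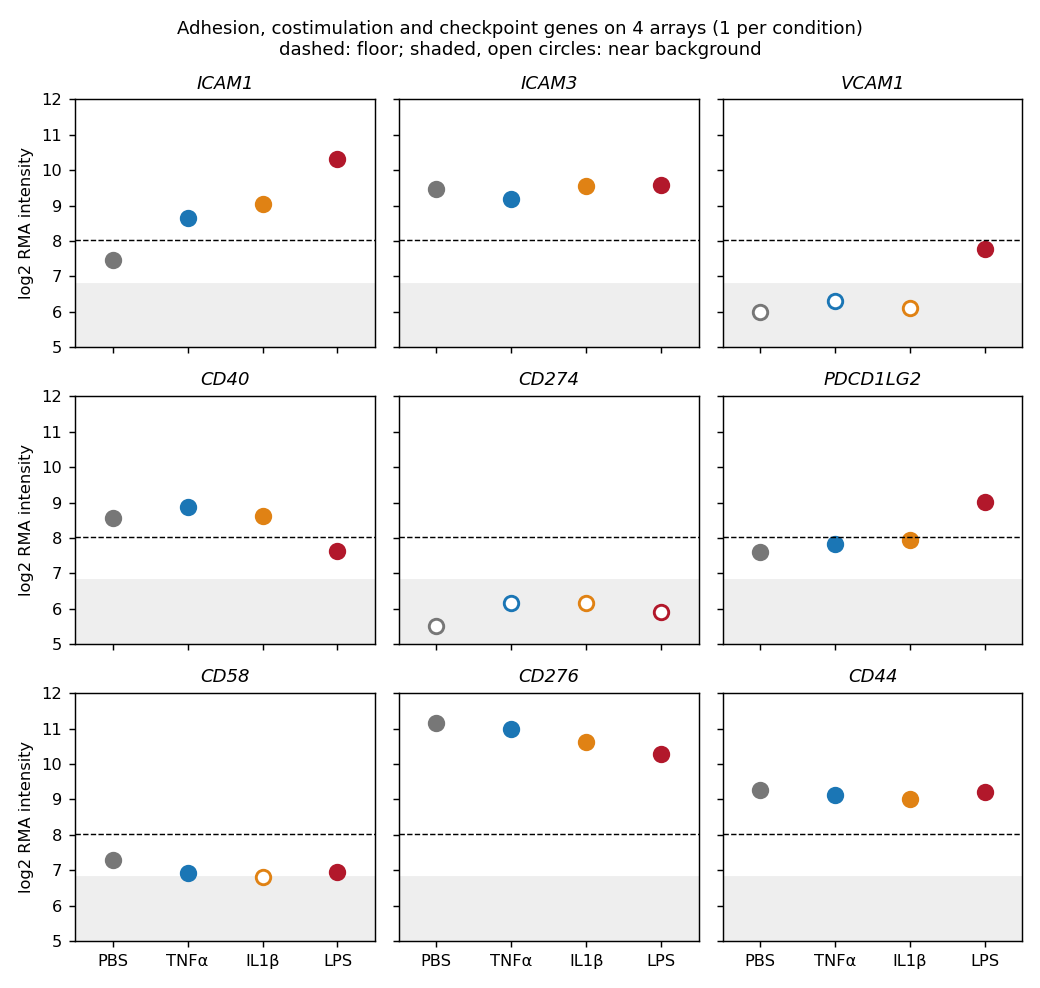
Log2 RMA intensity (vertical axis) of the 9 measured genes on the PBS, TNFα, IL1β and LPS arrays (horizontal axis), 1 point per array, with the floor as a dashed line at 8.02 and the near-background range shaded (open circles). ICAM1 stepped from 7.47 to 10.32, VCAM1 left the shaded range only with LPS, and CD274 stayed within it on all 4 arrays.

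ICAM3, a leukocyte adhesion molecule and ligand of LFA-1, differed little. It had intensities of 713 in the PBS control, 585 after TNFα, 748 after IL1β and 763 after LPS. The ratio of its brightest to its dimmest array was 1.31, and no difference reached 2-fold. Leukocyte markers moved between these arrays as given above, and their part in the ICAM3 signal was not tested.

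VCAM1, which binds the integrin α4β1, was bright enough to be read above background with LPS alone. Its intensities were 64.1 in the PBS control, 78.5 after TNFα, 68.7 after IL1β and 219 after LPS. The first 3 were near background, and the LPS value did not reach the floor, so VCAM1 was not called. Against the background limit it was at least 2.03-fold higher with LPS than with PBS. The 12 endothelial markers summed to 2151, 1902, 2063 and 2164 in the order PBS, TNFα, IL1β and LPS, with 1 higher (ESAM, at least 2.85-fold) and 1 lower (PECAM1, at least 3.71-fold) with LPS. TEK, KDR, FLT1 and EMCN were near background on all 4 arrays, and ENG, ROBO4 and TIE1 were above it on all 4. Their part in the VCAM1 signal was not tested.

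CD58 and CD44 were not called in any comparison. CD58 had intensities of 156 in the PBS control, 121 after TNFα, 111 after IL1β and 122 after LPS, below the floor throughout and near background with IL1β. PBS gave its highest value, with log2 differences of -0.36, -0.49 and -0.35 for TNFα, IL1β and LPS. CD44 had intensities of 618, 555, 514 and 589 in the order PBS, TNFα, IL1β and LPS, a range of 1.20-fold. The CD44 transcript is known for many splice forms, and its single set of 3 probes does not tell them apart.

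The costimulatory receptor CD40 had its lowest value with LPS and its highest with TNFα. Its intensity was 379 in the PBS control, 470 after TNFα, 391 after IL1β and 199 after LPS. The first 3 arrays lay above the floor and the LPS array below it. Log2 differences from PBS were 0.31 for TNFα, 0.05 for IL1β and -0.93 for LPS, none of which reached 2-fold. At or below the LPS value of -0.93 lay 835 of 9675 genes at the floor (8.63%).

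Of the PD-1 ligands, PDCD1LG2 was called with LPS and CD274 could not be read above background. PDCD1LG2 had intensities of 194 in the PBS control, 229 after TNFα, 246 after IL1β and 513 after LPS. Only the LPS value passed the floor. The log2 differences from PBS were 0.23 for TNFα, 0.34 for IL1β and 1.40 for LPS, or 2.64-fold. Because it passed the floor through the LPS array, its call needed a difference on that side. CD274 had intensities of 45.5 in the PBS control, 71.1 after TNFα, 71.4 after IL1β and 60.1 after LPS, all below the limit for background, so no fold is given. These values bound the signal of 1 set of 3 probes and do not show that the transcript is absent.

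CD276 was bright on all arrays and dimmer with each stimulus. Its intensity was 2269 in the PBS control, 2046 after TNFα, 1585 after IL1β and 1232 after LPS. The log2 differences from PBS were -0.15, -0.52 and -0.88 in that order, and none reached 2-fold. With LPS 935 of 9675 genes at the floor (9.66%) lay at or below the CD276 difference. CD40 and CD276 were thus near each other on the lower side with LPS, and with a 1.5-fold threshold both counted as lower. At that threshold 1710 of the 9675 genes at the floor counted as lower with LPS.

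**Figure D2:**
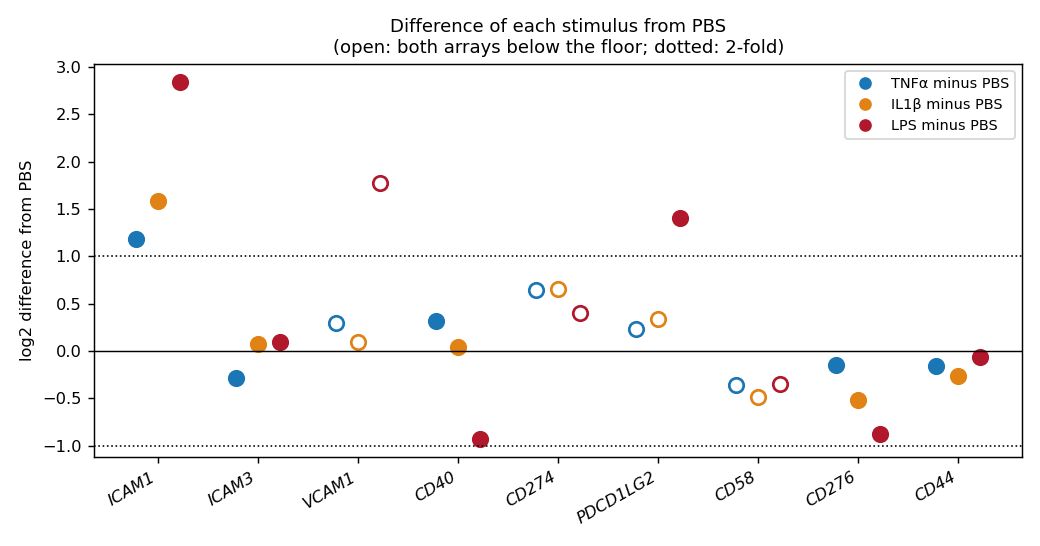
Log2 difference of TNFα, IL1β and LPS from PBS (vertical axis) for each measured gene (horizontal axis), 1 point per comparison, open where both arrays were below the floor, with dotted lines at 2-fold. ICAM1 passed the upper line with all 3 stimuli and PDCD1LG2 with LPS, while VCAM1 with LPS, drawn against a near-background PBS value, stayed below the floor.

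By comparison, TNFα against PBS called 1 of the 9 genes, ICAM1, out of 5 at the floor. Over all genes at the floor 6.76% were called, 3.37% higher and 3.4% lower. IL1β against PBS also called ICAM1 alone of 5 at the floor, where 6.7% of genes were called, 3.13% higher and 3.57% lower. LPS against PBS called ICAM1 and PDCD1LG2 higher, 2 of 6 at the floor, and none lower, where 16.2% of genes were called, 8.83% higher and 7.42% lower. All 3 comparisons share the PBS array. Median log2 differences of the 9 genes were 0.23, 0.07 and 0.10 with TNFα, IL1β and LPS, beside -0.03, -0.03 and 0.02 over all named genes. These medians include CD274, near background on 4 arrays, and VCAM1, near background on 3. The TNFα median is the PDCD1LG2 difference, for which both arrays were below the floor.

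**Figure D3:**
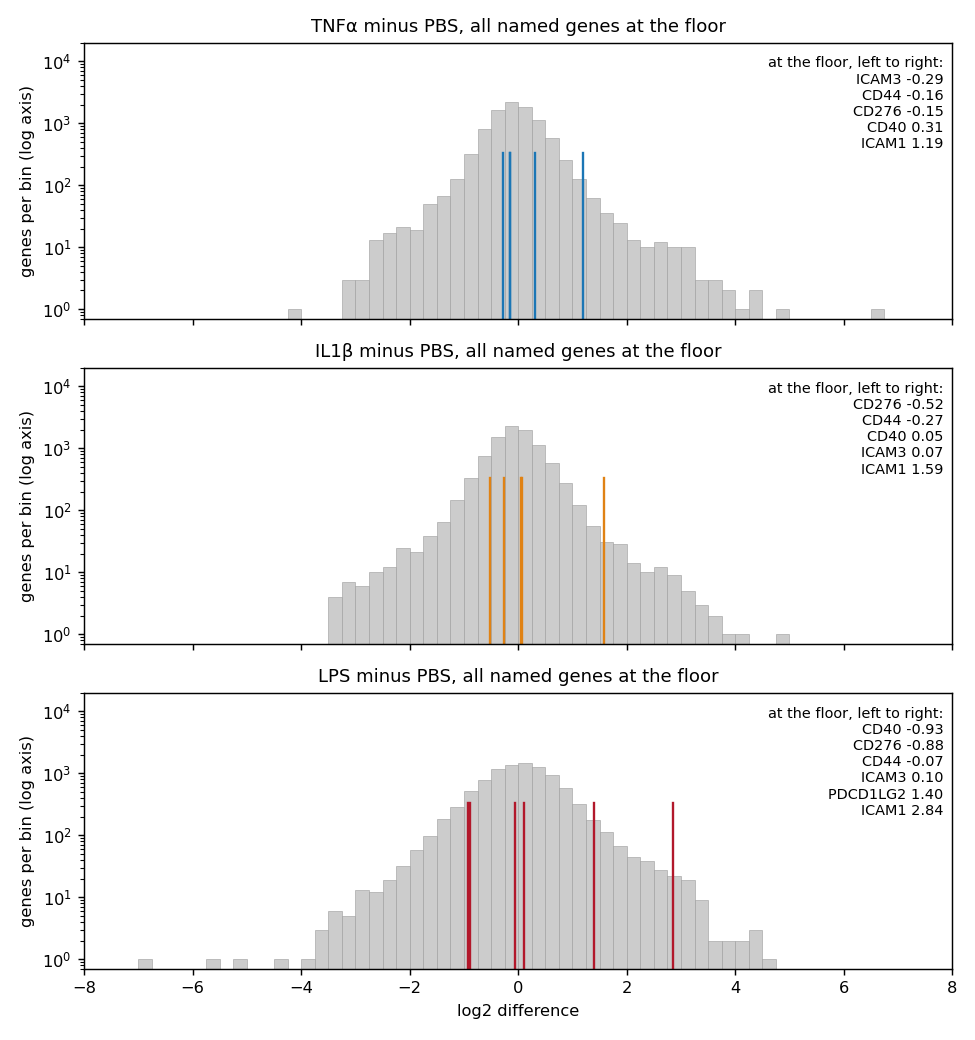
Number of named genes at the floor per bin of 0.25 (vertical log axis) by log2 difference from PBS (horizontal axis), for TNFα, IL1β and LPS, with coloured lines at the measured genes that reached the floor. ICAM1 lies in the upper tail of each panel, at 1.19, 1.59 and 2.84, and PDCD1LG2 at 1.40 with LPS.

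The stimuli were also set against each other, which leaves out the PBS array. The LPS array exceeded the TNFα array in ICAM1 by 1.66 on the log2 scale (3.16-fold) and the IL1β array by 1.26 (2.39-fold). PDCD1LG2 was higher with LPS by 1.17 and 1.06 against the same arrays. CD40 was lower with LPS than with TNFα, at -1.24 (2.36-fold), and its difference of -0.98 from IL1β did not reach 2-fold. LPS against TNFα thus called 2 genes higher and 1 lower of 6 at the floor, where 17% of all genes at the floor were called, 9.93% higher and 7.09% lower. LPS against IL1β called 2 higher and none lower, where 18% were called, 10.5% higher and 7.45% lower. VCAM1, below the floor, was at least 1.97-fold higher with LPS than with TNFα and at least 1.95-fold higher than with IL1β. TNFα against IL1β called none of the 9, where 3.6% were called, 1.87% higher and 1.74% lower, and its farthest value was -0.40 for ICAM1.

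The genes nearest to ICAM1 in their 3 differences from PBS were CXCR4, SEPTIN3, MGLL, MT1H and IFNGR1. Nearness was root mean square distance on the log2 scale, among 8592 other genes whose mean level over the 4 arrays reached the floor. CXCR4, a chemokine receptor, was nearest, at 0.25, with intensities of 185, 454, 734 and 1235 in the order PBS, TNFα, IL1β and LPS. MGLL, a monoglyceride lipase, had 142, 383, 484 and 1309 at a distance of 0.28. IFNGR1, a subunit of the interferon γ receptor, had 213, 613, 591 and 2009 at a distance of 0.31. Each of these has its dimmest value on the PBS array and its brightest with LPS, over 4 arrays only. That order follows from choosing genes near ICAM1 and is not a separate result.

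Among 20 counter-receptors and ligands of the 10 molecules, 2 were higher and 2 lower with TNFα, 1 and 1 with IL1β, and 1 and 1 with LPS. Those at the floor, which could be called, were 11, 10 and 11, beside 6.76%, 6.7% and 16.2% of all genes at the floor that were called. ITGB1, the β1 subunit that pairs with α4 to bind VCAM1, had an intensity of 616 with PBS against 4252 with TNFα, 3486 with IL1β and 4330 with LPS. Its partner ITGA4 was near background with PBS (72.8) and stayed below the floor elsewhere (143, 186 and 178). ITGB2, the β2 subunit of the ICAM1 receptors LFA-1 and Mac-1, had 894 with PBS and 369, 164 and 269 with TNFα, IL1β and LPS, and was lower each time. ITGAL, the α subunit of LFA-1, had 438, 1395, 386 and 285 in the same order and was higher with TNFα, by 1.67 on the log2 scale. RGMB, a partner of PDCD1LG2, was lower with TNFα (-1.23). ITGAL and ITGB2 are also leukocyte markers, and the part of that marker list in their differences was not tested. The CD58 receptor CD2 and the CD274 ligand CD80 were near background on all 4 arrays, and PDCD1, the receptor PD-1, lay below the floor at 166 to 222.

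Of 25 other adhesion molecules 2 were higher and 2 lower with TNFα, 2 and 1 with IL1β, and 2 and 1 with LPS. In each comparison 15 were at the floor, beside 6.76%, 6.7% and 16.2% of all genes at the floor called, and 3 of 15 with LPS is near that share. ALCAM (CD166), a ligand of CD6 on T cells, had 176 with PBS and 1238, 1281 and 1768 with TNFα, IL1β and LPS. ICAM5, another ICAM family member, was higher with TNFα (1.11) and IL1β (1.24). L1CAM, a neural adhesion molecule, had 2031 in the PBS control, 846 after TNFα, 973 after IL1β and 3946 after LPS, and both of its probe sets were lower with TNFα (-1.26 and -1.49). With IL1β the sets gave -1.06 and -0.98, the latter short of 2-fold. Near background on all 4 arrays were 5 of the 25, the endothelial selectin SELE, ICAM2, NCAM1, CEACAM1 and CEACAM6. NECTIN4 was higher with LPS (1.06), and PECAM1 (CD31) was lower with TNFα (-1.72) as well as with LPS.

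Among 27 measured costimulatory and checkpoint molecules besides those above, 2 were higher and 1 lower with TNFα, 3 and 0 with IL1β, and 4 and 1 with LPS. At the floor were 15, 15 and 16 of them, beside 6.76%, 6.7% and 16.2% of all genes at the floor called. TNFSF9 (4-1BB ligand), which costimulates T cells, had 243 with PBS and 1387, 948 and 1283 with TNFα, IL1β and LPS. TNFSF4 (OX40 ligand) had 171 with PBS and 702, 502 and 840. CD70, the ligand of CD27, was called with LPS alone, with 175, 114, 152 and 1407 in the order PBS, TNFα, IL1β and LPS. CD83, a marker of activated antigen-presenting cells, was higher with LPS (1.45), CD86 with IL1β (1.21), and CD24, a ligand of the inhibitory receptor Siglec-10, was lower with TNFα (-1.29). BTN2A1, a butyrophilin, was lower with LPS, at 1097 against 2196 with PBS. Near background on all 4 arrays were HHLA2, TNFSF18, CD48, TNFRSF14, BTLA, CD200 and IDO1, 7 of the 27.

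**Figure D4:**
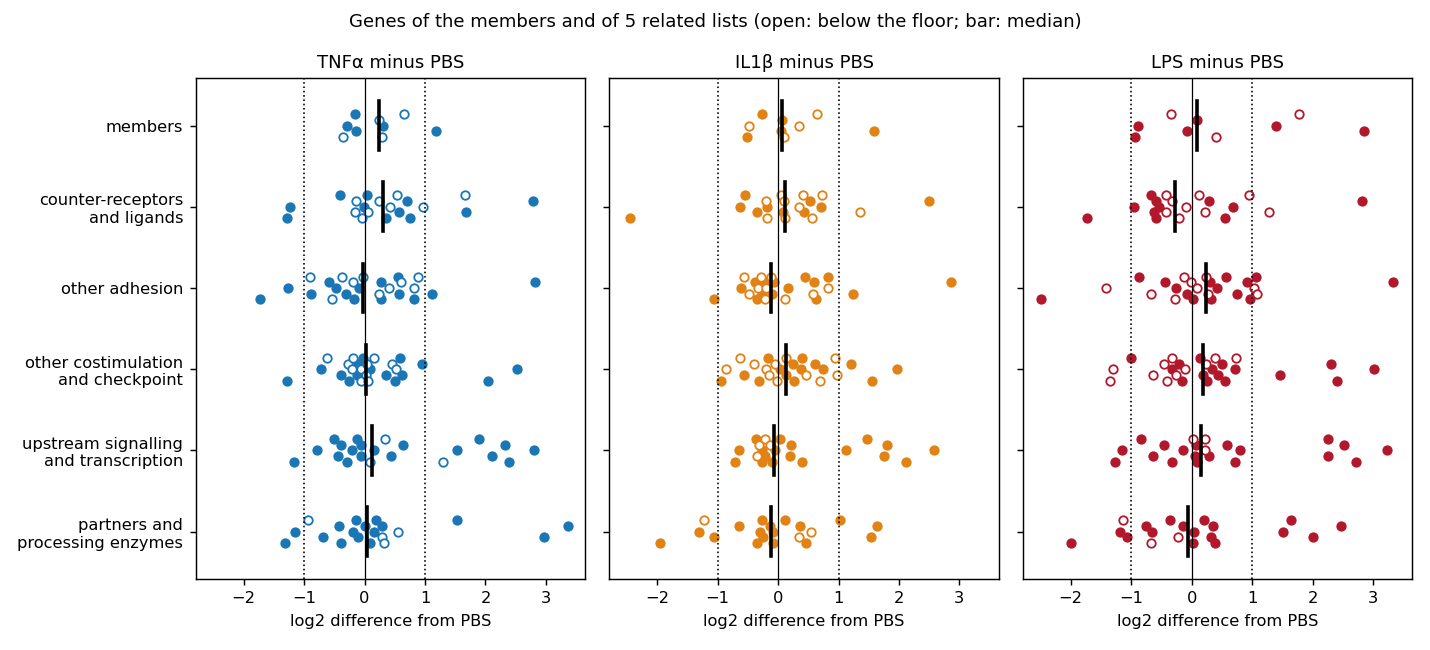
Log2 difference from PBS (horizontal axis) for each gene of the surface molecules (the row named members) and of 5 related lists (rows), in 1 panel per stimulus, open where both arrays were below the floor, with a bar at each list's median and dotted lines at 2-fold. List medians lay between -0.27 and 0.30, and each list held genes on both sides of 0.

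Signalling and transcription genes upstream of these molecules numbered 22, of which 6 were higher and 1 lower with TNFα, 6 and 0 with IL1β, and 5 and 2 with LPS. Of these genes 19, 18 and 19 were at the floor, beside 6.76%, 6.7% and 16.2% of all genes at the floor called. IRF1, which drives the PD-1 ligands in interferon responses, had 147 with PBS and 1023, 495 and 704 with TNFα, IL1β and LPS. IRF2 had 195 with PBS and 840, 1164 and 1116, and IFNGR2 618 with PBS and 2306, 2692 and 2956. HIF1A had 900 with PBS and 4713, 3139 and 5907, but its second probe set had log2 differences of -0.06, 0.07 and 0.13, so its call rests on 1 of 2 sets. RELA, the transactivating NF-κB subunit, had 6896 in the PBS control, 5946 after TNFα, 5703 after IL1β and 2860 after LPS, and was lower with LPS (-1.27). NFKB1 was not called against PBS but was higher with LPS than with TNFα (1.09) and than with IL1β (1.06). TLR4, the LPS receptor, was at least 3.82-fold higher with TNFα by 1 probe set, while its 2 other sets were near background. FOSL1, an AP-1 subunit, was lower with TNFα (-1.17) and LPS (-1.16).

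Partners and processing enzymes numbered 20, with 3 higher and 2 lower with TNFα, 3 and 3 with IL1β, and 4 and 3 with LPS. The number at the floor was 16, 17 and 17, beside 6.76%, 6.7% and 16.2% of all genes at the floor called. ADAM17, a sheddase of ICAM1 and VCAM1, had 1082 with PBS and 3117, 2209 and 4359 with TNFα, IL1β and LPS. MMP14, which cleaves CD44, had 140 with PBS and 1432, 436 and 772. TRAF2, an adaptor of CD40, had 1287 with PBS and 10052, 3730 and 4001, while TRAF5, another, had 544, 218, 219 and 557 and was lower with TNFα and IL1β. Moesin (MSN) and radixin (RDX) link CD44 to the actin cortex, and MSN was lower with IL1β (-1.06) and RDX higher with LPS (1.51). B3GNT3, which glycosylates CD274, was lower with every stimulus, at 286 with PBS and 129, 74.2 and 71.8 with TNFα, IL1β and LPS. Its IL1β and LPS values were near background, so it was at least 2.55-fold and at least 2.54-fold lower there. ADAM10, another sheddase, was lower with LPS (-1.06), and so was STT3A, an oligosaccharyltransferase subunit (-1.18). CMTM6, which keeps CD274 at the surface, was not called (905, 962, 750 and 916).

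Several of these related genes share with ICAM1 a PBS value at least 2-fold below each other array. They were 1 of 20 counter-receptors and ligands, 1 of 25 other adhesion molecules, 2 of 27 costimulatory and checkpoint molecules, 5 of 22 signalling genes and 3 of 20 partners, beside 96 of all 17185 named genes, each reaching the floor on a stimulated array. For such genes a high stimulated level and a low single PBS array cannot be told apart. The ICAM1 differences between LPS and the cytokine arrays, given above, do not use the PBS array but use the LPS array that stood apart. At or above them lay 243 of 9655 genes at the floor against TNFα (2.52%) and 594 of 9707 against IL1β (6.12%). They do not show whether TNFα or IL1β raised ICAM1 over PBS.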

How the data were processed

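The members and gene lists were chosen with earlier results of these data known. KYSE410 cells were measured on 4 one-colour NimbleGen arrays, 1 per condition. For each probe set the authors deposited a linear RMA intensity, per the file headers; no source used here names the software. The deposited series table held the same intensity for all 45033 probe sets. RMA commonly equalises array distributions, so a difference is relative to most other genes. Probe sets were named through RefSeq transcripts (GRCh38.p14, names only), and 18866 matched 1 symbol. A gene took its probe set of highest mean log2 value. The number of probes per set, a deposited column of another kind, was 3 for each member.

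Differences of log2 intensity were called at 2-fold with the brighter value at the floor. The rule was also run on simulated data to check the code, which does not show how often a call on these arrays is wrong. There was no test for lack of replicates. Named were all members, up to 4 called genes each way per related list and comparison, and the 5 genes nearest to ICAM1. Further genes, named to show members not called, near background or below the floor, and second probe sets, were chosen after their values were seen. The background limit was chosen with the data known. Computation was in Python 3.11.15 (pandas 2.3.3, numpy 2.4.6), loess in statsmodels 0.14.6 and plots in matplotlib 3.10.9. Alternatives changed the floor, probe set rule, normalization, offset, threshold and source table.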

Additional observations from a re-analysis of the deposited data

Results flagged for a closer look

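CD40 stood on opposite sides of PBS with LPS (log2 difference -0.93) and TNFα (0.31), and the arrays differed from each other by -1.24. With 1 array per condition the difference was not tested.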

How the results depend on the processing

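No called member changed sign under the alternatives run, but only loess centring and repeated quantile normalization could have changed a sign. With the floor at the 75th percentile of levels, TNFα and IL1β against PBS each called 0 members. LPS called 1 against PBS, 1 against TNFα and 1 against IL1β, each time ICAM1. Over all named genes that floor called 108 higher and 96 lower with TNFα and 101 and 104 with IL1β. With LPS it called 399 and 297 against PBS, 453 and 257 against TNFα, and 476 and 281 against IL1β. The offset left 0 called for TNFα against PBS and 1 for LPS against IL1β (PDCD1LG2 at 0.92). Over all named genes it called 231 higher and 231 lower for TNFα against PBS, and 810 and 539 for LPS against IL1β. A 3-fold threshold left 0 for TNFα against PBS, 1 for LPS against PBS, 1 for LPS against TNFα and 0 for LPS against IL1β. Over all named genes it called 118 higher and 109 lower for TNFα against PBS and 297 and 206 for LPS against PBS. For LPS against TNFα it called 280 and 173, and for LPS against IL1β 320 and 197. A 1.5-fold threshold gave 4 for LPS against PBS, with CD40 and CD276 lower. Of the 9675 genes at the floor it called 2025 higher and 1710 lower. Without a floor VCAM1 was at least 2-fold higher with LPS than on each other array, by its measured intensities. Loess centring and repeated quantile normalization changed no member's call, nor did a floor set without the LPS array, chosen after seeing the data. Members had 1 probe set each, so the probe set rule could not change them, and the series table holds identical values. ICAM1 was called for LPS against PBS under all 9 alternatives, but several of them could not remove that call. Dropping the floor and the 1.5-fold threshold only loosen the rule, and the probe set rule and series table left its values unchanged. No paired analysis was possible because each condition has 1 array. Signal over background limits CD274, VCAM1 and CD58.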
